A study of Mus musculus with 14 samples.

Results

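The Foxa family holds 3 genes, Foxa1, Foxa2 and Foxa3, which were found by their symbols among the 24054 genes listed for each of the 14 mouse libraries. All 3 members had a value in every library. Foxa2 is the gene that the study deleted or forced on, so its paralogs Foxa1 and Foxa3 could be followed in cells that lacked Foxa2, in cells that turned it on during differentiation, and in cells that carried an inducible copy.

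Foxa proteins are forkhead transcription factors whose winged-helix domain resembles that of linker histone, and they are called pioneer factors because they can bind their sites in closed chromatin. Foxa2 is needed for the node, notochord and definitive endoderm of the mouse embryo, and Foxa1 and Foxa2 act together in the formation of foregut, liver, lung and pancreas. Foxa3 is best known from liver, gut and testis.

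The knock-in libraries came from clones of the mouse embryonic stem (ES) cell line IDG3.2 in which Cas9D10A had replaced the Foxa2 coding region by the fluorescent reporter H2B-Venus. Control (con) clones carried the reporter on a single allele (Foxa2 Venus/+), so the controls were themselves heterozygous, and knockout (ko) clones carried it on both alleles (Foxa2 Venus/Venus). The d0con (n = 2) and d0ko (n = 2) libraries were ES cells grown on red-fluorescent feeder fibroblasts without LIF and sorted as Cherry-negative. The d3con (n = 3) and d3ko (n = 3) libraries were Venus-positive cells, collected by sorting when endoderm differentiation had run for 3 days on Wnt3a-secreting feeders with 12 ng/ml Activin A. Day 3 replicates 1 and 3 of each genotype came from the same clone (C59 for con, C9 for ko) and replicate 2 from another (C63 and C17). The d2-FVFn (n = 2) and d2-FVFp (n = 2) libraries came from the single clone T119, whose parent was homozygous for a Sox17-Cherry reporter and which carried a lentiviral Tet-On Foxa2-Venus transgene. T119 cells were kept in LIF and serum without feeders, received 40 ng/ml doxycycline for 48 h, and were sorted as Venus-negative or Venus-positive.

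The sorts bear on how Foxa2 itself can be read. Day 3 cells of both genotypes were gated on the reporter at the Foxa2 locus, and doxycycline-treated cells on the Foxa2-Venus fusion, so a Foxa2 difference made by the gate is a check of the libraries and not a finding. Reads from the transgene were counted as Foxa2 and cannot be told apart from reads of the endogenous gene, and the Venus transcript was not analysed here.

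The libraries held 14142788 to 27278237 expected counts over genes. Of 8 definitive endoderm markers, all 8 exceeded 1 TPM (a share of the transcripts of a library, scaled for transcript length) in every d3con library and 7 did so in every d3ko library, with summed levels of 1044.55 to 1325.13 TPM and 249.26 to 353.56 TPM. At day 0 they already summed to 193.17 to 196.63 TPM in d0con and 153.19 to 177.33 TPM in d0ko. There 3 and 4 of them exceeded 1 TPM in every library. Day 3 libraries of a genotype were not alike. The summed level of 6 pluripotency markers was 15430.6 and 17364 TPM in d3ko replicates 1 and 3, within or above the 13786.6 to 15568.7 TPM of d0con, but 2668.05 TPM in d3ko replicate 2 and 561.54 to 984.81 TPM in d3con. Node and notochord markers summed to 220.91 TPM in d3con replicate 2 and 223.75 TPM in d3ko replicate 2, against 19.02 to 60.47 TPM in the other day 3 libraries. Fibroblast markers summed to 53.18 to 306.26 TPM in d3con and 118.01 to 366.4 TPM in d3ko, against 12.01 to 14.44 TPM in d0con and 37.66 to 136.06 TPM in d0ko. Visceral and parietal endoderm markers summed to 204.8 to 453.77 TPM in d3con and 169.03 to 328.38 TPM in d3ko. At day 0 they already summed to 187.99 to 198.84 TPM in d0con and 237.42 to 280.11 TPM in d0ko. Of these 8 markers, 3 exceeded 1 TPM in every library of d3con and likewise of d3ko, and Afp alone was at 0 throughout both. Mesoderm markers summed to 11.82 to 43.45 TPM in d3con and 17.57 to 136.51 TPM in d3ko, against 1.73 to 1.98 TPM in d0con and 2.2 to 4.47 TPM in d0ko. Sox17, Gata4 and Gata6 are among the endoderm markers and Shh, T and Foxj1 among the node markers, and all 6 are also counted in other lists. The part of these marker differences in the results was not tested. In these bulk libraries, fewer cells of a type and less RNA per cell cannot be told apart.

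The 3 genes lie on different chromosomes (GRCm38), all on the minus strand. Foxa1 spans chr12:57540628-57548029, Foxa2 chr2:148042877-148046969 and Foxa3 chr7:19013283-19023539. The 250 bases before an annotated RefSeq start of each gene are shown to describe where the forkhead core motif occurs. Whether a Foxa protein acts there was not tested. Capitals mark the core motif TGTTTAC or its reverse complement GTAAACA, searched on both strands.

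Foxa1 chr12:57546112-57546361: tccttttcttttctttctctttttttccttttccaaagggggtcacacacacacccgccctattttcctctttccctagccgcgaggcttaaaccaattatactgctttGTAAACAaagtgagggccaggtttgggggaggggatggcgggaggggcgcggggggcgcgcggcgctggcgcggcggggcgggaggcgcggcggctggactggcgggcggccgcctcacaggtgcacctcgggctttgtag
Foxa2 chr2:148046970-148047219: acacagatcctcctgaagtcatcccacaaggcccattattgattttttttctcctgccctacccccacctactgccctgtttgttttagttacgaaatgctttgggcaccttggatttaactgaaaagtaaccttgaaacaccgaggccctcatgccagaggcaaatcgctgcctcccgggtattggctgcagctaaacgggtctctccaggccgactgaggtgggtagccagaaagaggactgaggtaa
Foxa3 chr7:19023540-19023789: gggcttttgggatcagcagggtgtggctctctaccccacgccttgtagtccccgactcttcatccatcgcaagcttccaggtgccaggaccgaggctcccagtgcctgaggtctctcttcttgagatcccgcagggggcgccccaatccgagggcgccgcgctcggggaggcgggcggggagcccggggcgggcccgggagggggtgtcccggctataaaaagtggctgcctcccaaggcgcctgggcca

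The Foxa1 window belongs to an annotated start that lies inside the Foxa1 span given above. The Foxa2 and Foxa3 windows shown lie outside the spans of their genes. The Foxa1 window held 1 match, 141 bases before that start and within the gene span. The Foxa3 window and the windows at the 3 annotated starts of Foxa2 held none. Among 32851 mouse promoter windows of this length, 3.17% held the motif, so a match in 1 of the 3 genes is a description of these letters and not of a binding site. GC content was 62% in the Foxa1 window, 50.8% in the Foxa2 window shown and 68.8% in the Foxa3 window.

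In undifferentiated ES cells the family was represented almost wholly by Foxa3. Foxa3 stood at 5.86 and 6.68 TPM in d0con and at 4.91 and 5.99 TPM in d0ko. Foxa2 stood at 0.13 and 0.14 TPM in d0con and at 0.07 and 0.11 TPM in d0ko, which rested on 2 or 3 counts a library. Foxa1 stood at 0.03 and 0 TPM in d0con (1 and 0 counts) and at 0.04 and 0.2 TPM in d0ko (2 and 8 counts). A count of 0 allows up to 3 counts in that library. Foxa3 thus made up 95.1% to 97.9% of the summed Foxa TPM in the 4 day 0 libraries, and it ranked 11th of 44 forkhead genes by mean TPM in each day 0 group. No member differed by the test between d0ko and d0con, where 0% of 13899 genes were called by edgeR. Of all genes, 194 had an unadjusted p under 0.05 there, and DESeq2 called 1. The fitted log2 difference of Foxa3 was -0.24 (SE 0.79, adjusted p = 1), with a 95% interval from -2.02 to 1.53. That interval spans changes larger than 2-fold in each direction.

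**Figure D1:**
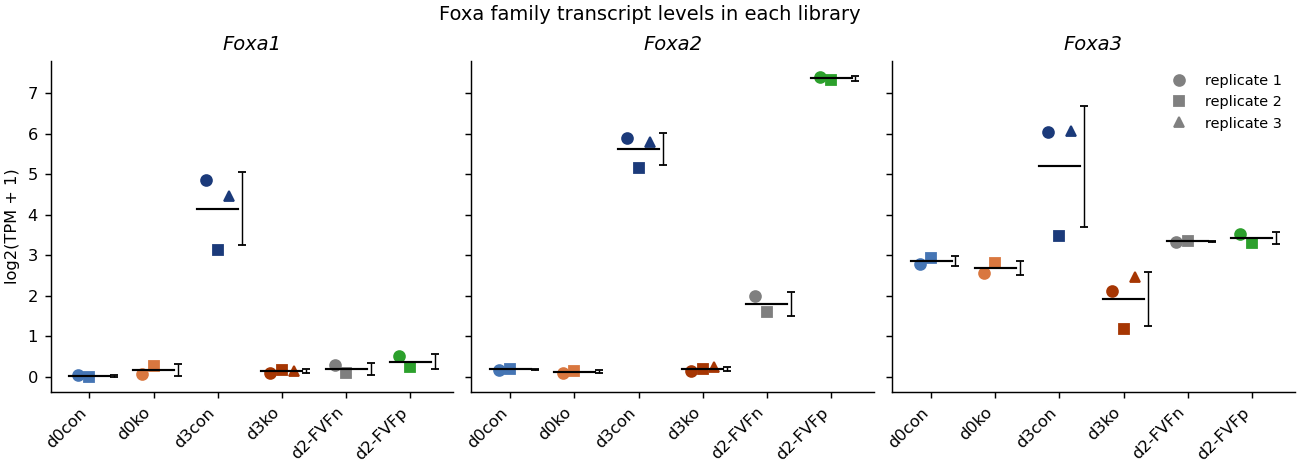
Level of each Foxa gene as log2(TPM + 1), with a point for each of the 14 libraries, shaped by replicate, a black line at the group mean and a bar of 1 SD beside it. In d3con all 3 genes are up and replicate 2 is the lowest point for each, while in d2-FVFp Foxa2 alone stands apart from d2-FVFn.

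After 3 days of endoderm differentiation all 3 members were expressed in control cells. Foxa1 reached 28.01, 7.72 and 21.15 TPM in d3con replicates 1, 2 and 3. Foxa2 reached 58.64, 34.81 and 54.47 TPM. Foxa3 reached 64.42, 10.07 and 66.58 TPM. For each member the lowest d3con value exceeded the highest d0con value, which also held for 45.5% of all genes tested. The same library, replicate 2 from clone C63, was the lowest for all 3 members, and its gap to the others was widest for Foxa3.

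All 3 members were called higher in d3con than in d0con (edgeR's quasi-likelihood test, Benjamini-Hochberg adjusted p under 0.05 and a change over 2-fold), against 35.2% of 13899 genes called in this comparison and 20.6% called higher. The fitted log2 change was 9.91 for Foxa1 (SE 1.06, adjusted p = 0.000287), 8.28 for Foxa2 (SE 0.44, adjusted p = 5.27e-05) and 2.71 for Foxa3 (SE 0.79, adjusted p = 0.0177). Since Foxa1 had a single count in d0con, its fold is better given by the pooled counts over library totals (CPM), which differed 1312-fold with a 95% counting interval from 235.3 to 51850. The Foxa2 change follows the Venus gate and is a check of the sort. The Foxa3 change was the least firm. With each clone as a block it was 1.97 with an adjusted p of 0.0638, and with libraries of a clone summed it was 2.43 with an adjusted p of 0.0546. Without d0con replicate 1 or replicate 2 its adjusted p was 0.105 or 0.0889 at log2 changes of 2.61 and 2.81.

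Within a clone, the size of the rise differed most for Foxa3. On the log2(TPM + 1) scale, which understates changes from low levels, Foxa3 rose by 3.25 and 3.3 from day 0 to the day 3 replicates of C59 and by 0.53 in C63. Foxa1 rose by 4.82 and 4.43 in C59 and by 3.12 in C63. Foxa2 rose by 5.72 and 5.62 in C59 and by 4.97 in C63. Clone C63 had the smaller rise of all 3 members, and with 1 library of it at day 3 the clone and the library cannot be told apart.

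**Figure D2:**
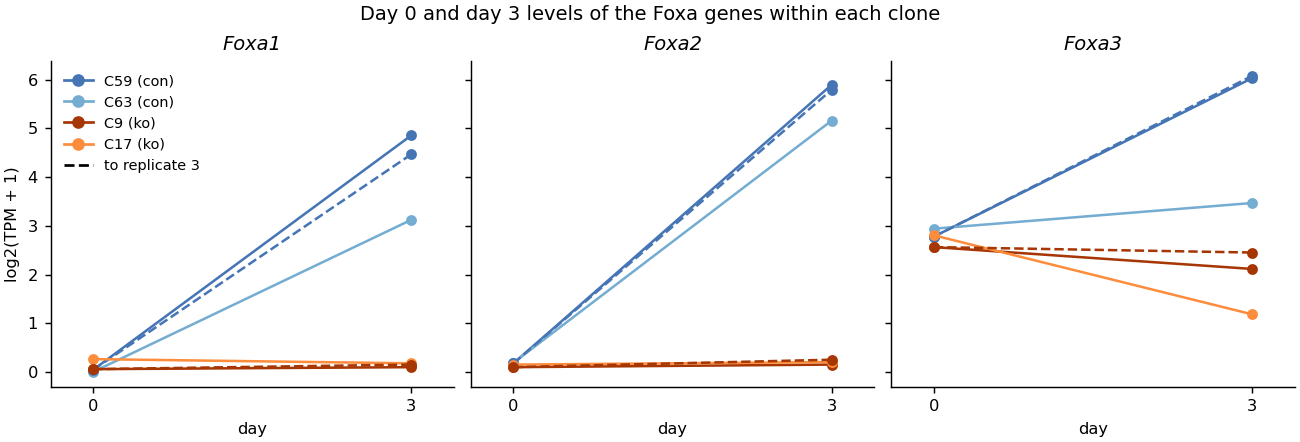
Day 0 and day 3 levels of each Foxa gene as log2(TPM + 1), joined within each clone, with control clones in blue and knockout clones in orange and brown, and dashed lines leading to replicate 3. Foxa3 starts at a like level in all 4 clones and parts by genotype, with C63 rising by 0.53 and C17 falling by 1.62. The changes in C9 are small, at -0.45 and -0.11.

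In knockout cells none of the 3 members was called at day 3 against d0ko, a comparison in which 17.3% of genes were called. Foxa1 stood at 0.07, 0.13 and 0.11 TPM in d3ko (2, 4 and 5 counts) and Foxa2 at 0.11, 0.15 and 0.19 TPM (2, 3 and 6 counts). Both overlapped their d0ko levels. Foxa3 stood at 3.33, 1.27 and 4.47 TPM, and all 3 libraries lay below the 4.91 and 5.99 TPM of d0ko, as did 21.4% of genes. The fitted log2 change of Foxa3 was -1.0 (SE 0.72, adjusted p = 0.317), that of Foxa1 -0.37 (SE 0.89, adjusted p = 0.778) and that of Foxa2 0.59 (SE 0.55, adjusted p = 0.526). Without both replicate 2 libraries Foxa3 was -0.62 with an adjusted p of 0.0446, under the fold threshold.

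The genotypes were also compared at day 3. In that comparison the loss of Foxa2 cannot be told apart from the marker differences given above. All 3 members were called lower in d3ko than in d3con, where 8.26% of 13899 genes were called and 3.51% were called lower. The highest d3ko value was below the lowest d3con value for each member, as for 12.3% of genes. Foxa2, the deleted gene, had a fitted log2 difference of -8.26 (SE 0.36, adjusted p = 2.585e-05), as its labels require. Foxa1 differed by -7.52 (SE 0.72, adjusted p = 0.00349) and Foxa3 by -3.95 (SE 0.71, adjusted p = 0.0141). The pooled CPM of Foxa1 were 188.4 times higher in d3con, with a 95% counting interval from 105.1 to 378, and those of Foxa3 were 14.9 times higher, with an interval from 13.01 to 17.15. Both intervals cover counting error only.

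Other selections of libraries gave other adjusted p-values. Without both day 3 replicate 2 libraries, a choice made after seeing the data, the log2 difference was -8.05 for Foxa1 (adjusted p = 9.74e-05) and -4.07 for Foxa3 (adjusted p = 3.04e-05). The d3ko libraries left in that fit are the ones with pluripotency markers at ES cell level, so it does not separate the members from those markers. The Foxa3 call was lost without d3con replicate 1 (-3.62, adjusted p = 0.0538), d3con replicate 3 (-3.69, adjusted p = 0.0651) or d3ko replicate 1 (-4.03, adjusted p = 0.05001), and in a fit of these 6 libraries alone (-3.97, adjusted p = 0.0585). With libraries of a clone summed, which leaves 2 clones a genotype, Foxa2 stayed called while Foxa1 was -7.25 (adjusted p = 0.075) and Foxa3 was -3.83 (adjusted p = 0.125), and 1 gene of 13666 was called in all.

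The difference between the genotypes' day 0 to day 3 changes was also fitted. It was -10.28 for Foxa1 (SE 1.47, adjusted p = 0.1), -7.68 for Foxa2 (SE 0.87, adjusted p = 0.0544) and -3.71 for Foxa3 (SE 1.05, adjusted p = 0.202). None passed after adjustment over 13899 genes, of which edgeR called 0%, while 1840 genes had an unadjusted p under 0.05 and DESeq2 called 565. The unadjusted p of the members was 5.53e-05, 7.83e-06 and 0.006. With each clone as a block Foxa1 passed (-9.79, adjusted p = 0.0458). Without d3con replicate 2 all 3 members passed, with adjusted p of 0.00735, 0.00437 and 0.021, and without d3ko replicate 2 Foxa1 and Foxa2 passed (adjusted p = 0.0096 and 0.00415).

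**Figure D3:**
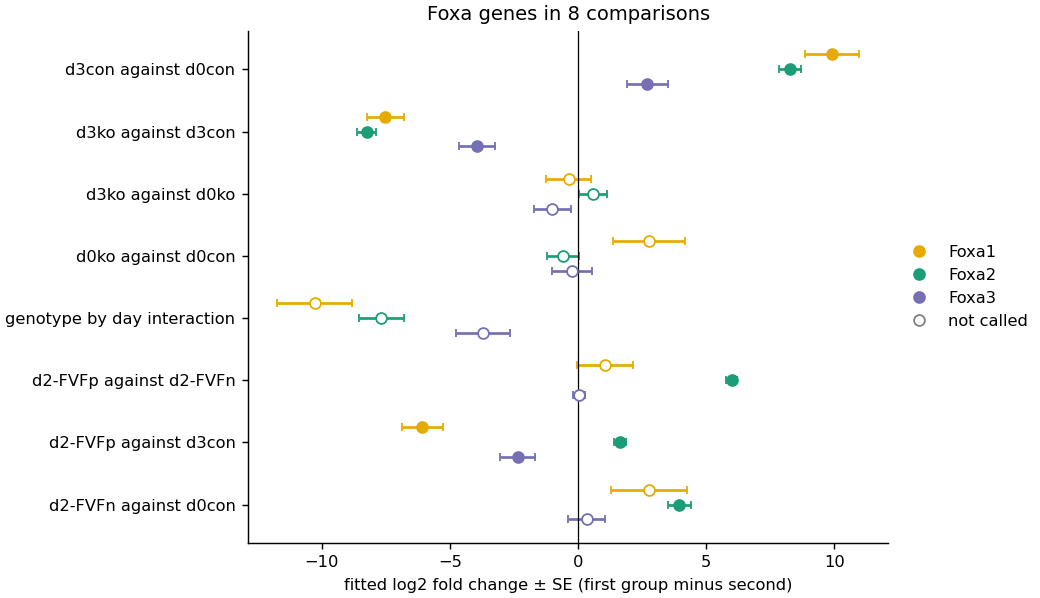
Fitted log2 fold change with its SE for Foxa1 (yellow), Foxa2 (green) and Foxa3 (purple) in 8 comparisons, first group minus second, with filled points for calls and open points for no call. All 3 members are called, in opposite directions, in d3con against d0con and in d3ko against d3con, and none in d3ko against d0ko.

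Doxycycline-induced Foxa2 gave another pattern, in which neither paralog was called. Foxa2 stood at 168.57 and 159.81 TPM in d2-FVFp and at 2.99 and 2.01 TPM in d2-FVFn. Foxa3 stood at 10.54 and 8.92 TPM in d2-FVFp and at 9.11 and 9.15 TPM in d2-FVFn, so that the groups overlapped. Foxa1 stood at 0.42 and 0.18 TPM in d2-FVFp (10 and 5 counts) and at 0.22 and 0.06 TPM in d2-FVFn (6 and 2 counts), and again the groups overlapped.

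Foxa2 was called with a log2 difference of 6.0 (SE 0.22, adjusted p = 0.000141), in a comparison where 8.44% of 12943 genes were called. This difference follows the gate and the transgene. Foxa3 differed by 0.04 (SE 0.22, adjusted p = 0.906), with a 95% interval from -0.47 to 0.56, so that a change of 2-fold or more in either direction lay outside it. Foxa1 was below the count filter of this fit. In the fit with no filter it differed by 1.05 (SE 1.08, adjusted p = 0.594), and the ratio of its pooled CPM was 2.27 with a counting interval from 0.902 to 6.17, so a modest change was not detectable at this depth.

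Forced and naturally arising Foxa2-positive cells therefore differed in the members that accompanied Foxa2. In the fit of all 14 libraries, in which 29.0% of 14312 genes were called between d2-FVFp and d3con and 14.5% in each direction, Foxa2 was 1.65 higher in d2-FVFp on the log2 scale (SE 0.23, adjusted p = 0.000334). Foxa1 was lower by 6.08 in the same comparison, with a fitted value of -6.08 (SE 0.81, adjusted p = 0.000254). Foxa3 had a fitted value of -2.36 (SE 0.69, adjusted p = 0.0163), although d3con replicate 2, at 10.07 TPM, lay between both d2-FVFp libraries. Its call was lost without d2-FVFp replicate 1 (-2.49, adjusted p = 0.0823) or replicate 2 (-2.22, adjusted p = 0.104). Cell line, medium, time and Foxa2 dose all differ between these groups and cannot be told apart.

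The Venus-negative cells of T119 were not without Foxa2. Their 2.99 and 2.01 TPM (53 and 43 counts) lay above both d0con libraries, as for 48.9% of genes, and d2-FVFn was called higher than d0con by 3.95 on the log2 scale (SE 0.45, adjusted p = 0.00134), where 7.87% of genes were called and 4.23% called higher. Foxa3 was 0.33 higher in d2-FVFn than in d0con (SE 0.71, adjusted p = 0.783) and Foxa1 2.77 higher (SE 1.47, adjusted p = 0.226), and neither was called. Whether the Foxa2 reads of Venus-negative cells came from the transgene was not tested.

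Ordered by group mean, Foxa1 was highest in d3con (18.96 TPM ± 10.3, SD, n = 3), and the other 5 groups had means of 0.015 to 0.3 TPM. Neighbours in that order overlapped from d2-FVFp down to d3ko, and d0con lay below them. Foxa2 was highest in d2-FVFp (164.19 TPM ± 6.19, SD, n = 2), then d3con (49.31 TPM ± 12.7, SD, n = 3) and d2-FVFn (2.5 TPM ± 0.693, SD, n = 2), with no overlap between neighbours. The d3ko, d0con and d0ko means of Foxa2 were 0.15, 0.135 and 0.09 TPM, each resting on a handful of counts. Foxa3 was highest in d3con (47.02 TPM ± 32, SD, n = 3), whose range overlapped that of d2-FVFp (9.73 TPM ± 1.15, SD, n = 2), and lowest in d3ko (3.02 TPM ± 1.62, SD, n = 3). In TPM, Foxa3 had the largest SD of the members inside d3con.

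The summed Foxa level, which TPM allows because it is scaled for transcript length, was 151.07, 52.6 and 142.2 TPM in d3con and 1.55 to 4.77 TPM in d3ko. Its make-up also differed. In d3con, Foxa1 gave 14.7% to 18.5% of the sum, Foxa2 38.3% to 66.2% and Foxa3 19.1% to 46.8%. In replicate 2 Foxa2 gave the larger part, whereas in replicates 1 and 3 Foxa3 gave 42.6% and 46.8%, more than Foxa2. In d3ko, Foxa3 gave 90.2% ± 7.16 (SD, n = 3) of what was left. Its share was 54 percentage points above that of d3con (exact two-sided permutation p = 0.1, the smallest that 3 against 3 libraries allow). Because Foxa2 is deleted in d3ko, its loss from the sum by itself raises the share of the rest. The larger share is therefore not a finding about Foxa3, whose own TPM was lower in d3ko. In d2-FVFp, Foxa2 gave 93.9% and 94.6% of the sum, against 24.3% and 17.9% in d2-FVFn (exact two-sided permutation p = 0.333, the smallest possible). That difference follows the gate and the transgene and is a check of the libraries.

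**Figure D4:**
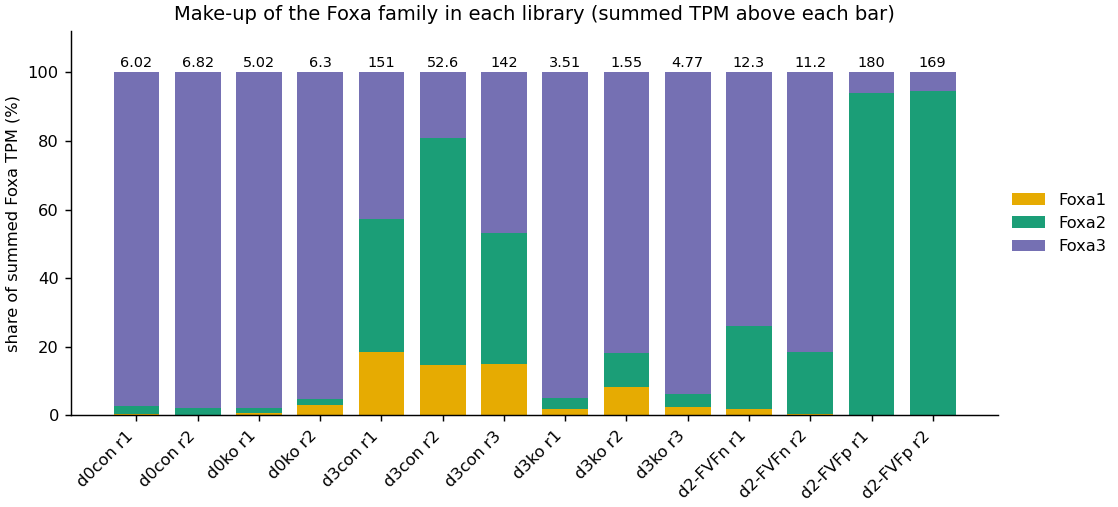
Share of the summed Foxa TPM from Foxa1 (yellow), Foxa2 (green) and Foxa3 (purple) in each of the 14 libraries, with the sum in TPM above each bar. Foxa3 fills 95.1% to 97.9% of the day 0 bars and Foxa2 93.9% and 94.6% of the d2-FVFp bars, and the d3con bars alone hold a broad Foxa1 segment of 14.7% to 18.5%.

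Beside the other forkhead genes, the Foxa members were a small part of ES cells. They gave 2.01% to 2.54% of the summed TPM of 44 forkhead genes in the day 0 libraries, 8.28% to 19.7% in d3con, 0.314% to 1.46% in d3ko and 34.2% to 35% in d2-FVFp. Foxh1, a partner of Smad proteins in Nodal signalling, had the highest mean TPM of the forkhead genes in 5 of the 6 groups, and Foxa2 had it in d2-FVFp. In d3con Foxa2 ranked 3rd, Foxa3 4th and Foxa1 8th.

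Of 41 other forkhead genes, 23 passed the count filter of the day 0 and day 3 fit. In d3con against d0con, 5 were called higher and 4 lower, with a median log2 change of 0.42 against 0.07 over all genes tested, of which 20.6% were called higher and 14.6% lower. Foxq1 rose from 0.19 and 0.07 TPM to 149.15, 48.89 and 116.13 TPM (log2 change 9.42, SE 1.37, adjusted p = 0.000811), and replicate 2 was again the lowest. Foxj2 rose (1.95, SE 0.25, adjusted p = 0.000513), as did Foxh1 by 1.39 and the low-level genes Foxc1 and Foxf2. Foxd3, a gene of pluripotent cells and neural crest, fell from 17.5 and 17.66 TPM to 0.17 to 0.75 TPM (log2 change -5.56, SE 0.74, adjusted p = 0.000561). Foxr1, Foxn4 and Foxp1 also fell, with log2 changes of -6.06, -3.75 and -1.90.

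In d3ko against d3con, 2 of these 23 were called higher and 1 lower, with a median of 0.11 against 0.02 over all genes, of which 4.75% were called higher. Foxq1 was lower in d3ko, at 27.93, 12.32 and 3.1 TPM (log2 difference -2.88, SE 0.76, adjusted p = 0.0431). Unlike the Foxa members, Foxq1 was still called higher in d3ko than in d0ko (6.30, SE 1.24, adjusted p = 0.00704), as were 11.6% of genes. Foxd3 and Foxr1 were higher in d3ko than in d3con, by 3.13 and 3.77, which moved with the pluripotency markers given above. In d2-FVFp against d2-FVFn, 4 of 22 were called higher and 3 lower, against 6.96% and 1.48% of all genes. Foxj1, which drives motile cilium formation, rose from 1.67 and 2.05 to 18.87 and 21.01 TPM (log2 difference 3.37, SE 0.23, adjusted p = 0.000828). Foxq1 rose to 2.16 and 5.87 TPM (3.61, SE 0.61, adjusted p = 0.0111). Foxd2 rose to 0.82 and 1.27 TPM, and Foxl1, with no count in d2-FVFn, was at least 19.7-fold higher in d2-FVFp against a floor of 3 counts over the group. Foxr2, Foxi3 and Foxn3 fell by 2.28, 1.86 and 1.02 on the log2 scale.

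**Figure D5:**
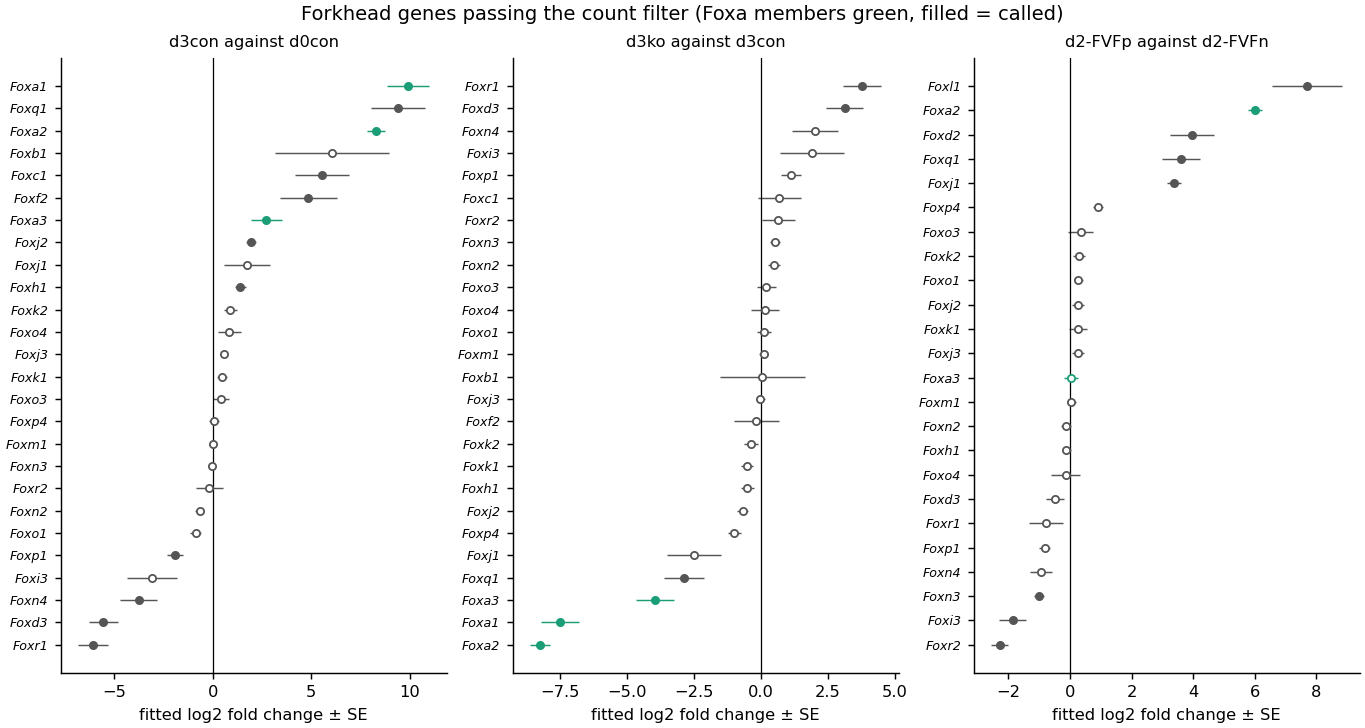
Fitted log2 fold change with its SE for each forkhead gene that passed the count filter in 3 comparisons, with Foxa members in green and filled points for calls. Foxa1 and Foxa2 lie at an end of the day 3 panels, and in the doxycycline panel Foxa2 is second to Foxl1 while Foxa3 lies at 0.04.

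Genes listed as inducers of Foxa2 in mesendoderm, node and floor plate were in the main called higher in the same cells. Of 23 such genes, all of which were tested, 14 were called higher in d3con than in d0con and none lower (edgeR), with a median of 1.39, against 20.6% and 14.6% of all genes and a median of 0.07. Lhx1, Gsc and Mixl1, which are organizer and primitive streak transcription factors, reached 201.62 to 254.33, 119.83 to 165.89 and 44.14 to 59.97 TPM from at most 0.51 TPM. In d3ko against d3con 3 were called lower and none higher (edgeR), with a median of -0.37, against 3.51% and 4.75% of all genes and a median of 0.02. Gsc and the head organizer gene Otx2 were lower in d3ko, by -2.27 (SE 0.51, adjusted p = 0.0252) and -2.19 (SE 0.49, adjusted p = 0.0257). Shh, the Hedgehog ligand of notochord and gut, had 0.76, 1.46 and 0.69 TPM in d3con and no count in d3ko. That is an at least 28.1-fold difference against a floor of 3 counts over the group. Shh is also on the list of textbook Foxa targets, and whether a listed gene acts above or below Foxa2 in these cells was not tested. Mixl1 (74.97, 104.74 and 32.48 TPM), Lhx1 (44.48, 200.69 and 19.83 TPM) and Eomes (44.83, 63.2 and 12.05 TPM) were not called in that comparison and were each called higher in d3ko than in d0ko. The last library, d3ko replicate 3, had the least of all 3. Lhx1 and Eomes were lower in every d3ko than in every d3con library (log2 differences -1.4 and -0.9), as were 12.3% of genes. Mixl1 overlapped.

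In d2-FVFp 3 of 21 of these genes were called higher and 2 lower than in d2-FVFn, against 6.96% and 1.48% of all genes. Shh rose from 1 count in all to 15.5 and 16.09 TPM, well above its d3con level. Lhx1 reached 2.35 and 1.16 TPM and Eomes 2.98 and 3.23 TPM, far below their d3con levels. Lef1 and Otx2 fell by 1.93 and 1.06 on the log2 scale.

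Among 14 cofactors and chromatin partners of Foxa proteins, all of which were tested, 5 were called higher and 3 lower in d3con than in d0con, against 20.6% and 14.6% of all genes. The endoderm factors Sox17, Gata4 and Gata6 rose to 62.37 to 130.52, 75.89 to 152.89 and 42.59 to 50.39 TPM. The Groucho corepressor genes moved apart, with Tle2 higher by 3.22 (SE 0.82, adjusted p = 0.00989) and Tle4 lower by 3.88, at -3.88 (SE 0.34, adjusted p = 0.000164). Sirt1 and Ino80 fell by 1.46 and 1.26. In d3ko against d3con, Sox17 was lower at 2.1, 1.25 and 0.76 TPM (log2 difference -6.24, SE 0.54, adjusted p = 0.00226), Tle2 was lower by 2.77 at -2.77 (SE 0.67, adjusted p = 0.032), and Tle4 was higher by 1.61. These calls, 2 lower and 1 higher of 14, stand against 3.51% and 4.75% of all genes. Gata4 (46.19, 69.03 and 13.81 TPM) and Gata6 (18.27, 28.9 and 4.34 TPM) were not called in that comparison (adjusted p = 0.0773 and 0.109). Both were lower in every d3ko than in every d3con library (log2 differences -1.54 and -1.45), as were 12.3% of genes. In d2-FVFp, Gata6, Gata4 and Tle2 were called higher and none of the 13 tested was called lower (edgeR), against 6.96% and 1.48% of all genes. They reached 6.73 and 4.71, 6.21 and 5, and 2.56 and 2.89 TPM, while Sox17 stood at 0.16 and 0.59 TPM.

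Of 23 textbook Foxa targets of liver, lung and foregut, 7 passed the count filter of each main fit, so most were too low to test. In d3con, Hnf4a, a transcription factor of the hepatic network, reached 9.91, 1.62 and 9.01 TPM, with replicate 2 the lowest. Apob was also called higher, and Nr5a2 and Apoa2 lower. Between d3ko and d3con, Apob was lower in d3ko by 6.34, at -6.34 (SE 1.14, adjusted p = 0.014), whereas Nr5a2 and Apoa2 were higher by 4.42 and 2.52. In d2-FVFp the fibrinogen chain gene Fgb stood at 97.15 and 207.87 TPM and at no count in d2-FVFn, at least 1587-fold higher against the same floor, and it had at most 1 count in any day 0 or day 3 group. Apoa1 and Apob rose to 2.53 and 2.87 TPM and to 1.04 and 1.47 TPM, and Nr5a2 fell by 2.04.

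Over these lists and the genome neighbours together, the count of calls rested on single libraries. The genes tested in d3ko against d3con were 23 forkhead genes, 23 inducers, 14 cofactors, 7 targets and 9 neighbours, with Foxh1 and Shh shared between lists. In that comparison, 6 list genes were called higher and 8 lower, where 4.75% and 3.51% of all genes were. Without d3con replicate 1 these were 0 and 3, without d3con replicate 3 they were 0 and 2, without d3ko replicate 1 the lower count was 5, and without both replicate 2 libraries the higher count was 11. Calls over all genes moved in the same way, from 1148 to 219, 74, 488 and 2572 in those settings. The dependence on single libraries was thus not particular to the list genes. In d2-FVFp against d2-FVFn, 22, 21, 13, 7 and 8 genes of these lists were tested, in the same order. Of them, 13 list genes were called higher and 6 lower, where 6.96% and 1.48% of all genes were. The higher count was 4 without either d2-FVFp library and 7 without d2-FVFn replicate 1, and the lower count was 3 without either d2-FVFn library.

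The genes nearest to the members were also examined. Among genes listed for these libraries, the nearest to Foxa1 and Foxa2 were 83.4 kb (Mipol1) and 325.2 kb (A530006G24Rik) away. Foxa3 lies 0.838 kb from Sympk and 6.52 kb from Irf2bp1. Genes not listed were left out of the search, so these gaps do not measure gene density. Of 18 neighbours, 3 on each side of each member, 9 passed the filter of the day 0 and day 3 fit, and 2 were called higher in d3con than in d0con, near the 20.6% of all genes. None was called between d3ko and d3con or among the 8 tested between the doxycycline groups (edgeR), where 8.26% and 8.44% of all genes were called, so these counts show nothing particular to the neighbours. Mipol1, beside Foxa1, rose from 9.14 and 8.83 TPM to 26.14, 22.89 and 37.75 TPM (1.47, SE 0.37, adjusted p = 0.00911), but it stood at 28.45, 16.08 and 38.14 TPM in d3ko, where Foxa1 had at most 5 counts. Cd93, 389.7 kb from Foxa2, had no count in d0con and 0.23, 0.52 and 0.81 TPM in d3con, at least 24.9-fold higher, and 0.47, 2.15 and 0.01 TPM in d3ko. At most 1 neighbour was called when any 1 library of these groups was left out, and none without d0con replicate 1 or replicate 2. Around Foxa3, Sympk, Irf2bp1, Dmwd and Mypop ranged from 0.63 to 72.97 TPM across libraries and none was called in d3con against d0con (Sympk was 0.62 higher, adjusted p = 0.0114, under the fold threshold), while Nanos2 and Rsph6a were at 1.53 TPM or below. Prps1l3 and Sec23a near Foxa1 were expressed at 28.86 to 77.43 TPM and were not called, with Prps1l3 lower in d3con at -0.73 (adjusted p = 0.00479), also under the fold threshold. The other neighbours of Foxa1 (Slc25a21, Sstr1 and Clec14a) and of Foxa2 (A530006G24Rik, Pax1, AI646519, Sstr4 and Thbd) stood at 1.9 TPM or below in every library.

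Which genes had the pattern most like each member was described by Pearson's r of log2(TPM + 1) over the 14 libraries, among 11743 genes with at least 5 TPM in a library. Libraries of a group share their cells and sort, so r describes the pattern over 6 groups and carries no p. The 5 genes most like Foxa1 were Gm5771 (r = 0.995), Prss1 (0.995), Slc39a2 (0.99), Ajap1 (0.988) and Akr1c19 (0.986), which were at 0.75 TPM or below outside d3con. Gm5771 and Prss1 are near-identical trypsinogen genes that can share reads, so their values are uncertain. Those most like Foxa2 were the keratin Krt7 (0.972), Igsf11 (0.964), Sel1l3 (0.96), Lcp1 (0.959) and the Dickkopf receptor gene Kremen1 (0.951), all of which were higher in every d3con and d2-FVFp library than in any other library. Those most like Foxa3 were Proc (0.966), the protein C gene, then Ovol2 (0.965), Tnnt1 (0.953), Spink3 (0.942) and Mapk15 (0.94). With only the 10 day 0 and day 3 libraries, 2, 0 and 2 of these 5 genes were kept for Foxa1, Foxa2 and Foxa3, and on the log2(TPM + 0.1) scale 1, 3 and 4 were kept.

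The members' likeness to each other depended on the same choice. Over 14 libraries r was 0.859 between Foxa1 and Foxa3, 0.669 between Foxa2 and Foxa3 and 0.59 between Foxa1 and Foxa2. Over the 10 day 0 and day 3 libraries it was 0.911, 0.871 and 0.989, and Foxa1 then ranked 4th among all genes in likeness to Foxa2. Both settings differ only in the doxycycline libraries, where Foxa2 was high and Foxa1 was not.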

How the data were processed

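RNA was sequenced from low-input SMART-Seq v4 libraries of 14 sorted cell samples. Per the labels and the methods of the study, the authors aligned reads to mm10 (GRCm38) with STAR and estimated expression with RSEM, with versions not given in the sources used here. The deposited tables hold expected counts, which need not be whole, and TPM, scaled by the authors for transcript length and library total, for 24054 genes by symbol. Of the 42 expected counts of the 3 members, 6 were not whole (tolerance 0.005). Libraries were not stranded, so overlapping antisense transcripts cannot be told apart. Replicates 1 of d3con and d3ko had 75-base reads and the others 50-base reads.

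Expected counts were rounded and tested with edgeR 4.0.16 (quasi-likelihood test, TMM scaling, at least 1 CPM in at least 2 libraries of the fit, R 4.3.3) with Benjamini-Hochberg adjustment over all genes tested. A call needed an adjusted p under 0.05 and an absolute log2 change over 1. The 10 day 0 and day 3 libraries, the 4 doxycycline libraries and all 14 libraries were fitted apart. DESeq2 1.42.0 was an alternative. Tests were checked on simulated counts. Fitted changes of genes with counts near 0 depend on the prior count. Intervals and floors cover counting error only. The study calls the day 0 and day 3 libraries of a group biological replicates. Libraries of 1 clone share that clone, and for the doxycycline libraries, all of 1 clone, no source used here says how replicates were taken, so p-values measure the spread between these samples.

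Same-numbered day 0 and day 3 replicates 1 and 2 came from the same clone, as sample file names show, and so pair by clone. The correlation of their deviations from group means across genes was 0.0223 and -0.00523 for con and -0.0344 and 0.0583 for ko. Named genes were the 3 members, up to 4 genes per list and direction with the largest called changes and no overlap between groups, all genome neighbours, and the 5 genes most like each member. The members and lists were chosen with earlier results of these data known. Promoter windows came from RefSeq (GRCm38.p6), where all 3 members matched. Some named genes of the target list are not reported here.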

Additional observations from a re-analysis of the deposited data

Results flagged for a closer look

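Between day 0 and day 3, the Foxa3 libraries of each genotype separated without overlap and in opposite directions. All 3 d3con libraries (10.07 to 66.58 TPM) lay above both d0con libraries, as for 45.5% of genes. All 3 d3ko libraries (1.27 to 4.47 TPM) lay below both d0ko libraries. Within clones, on the log2(TPM + 1) scale, the ko change was -0.45 and -0.11 in C9 and -1.62 in C17. The con change was 3.25 and 3.3 in C59 and 0.53 in C63. The fall in ko was not called (-1.0, adjusted p = 0.317 by edgeR), and 21.4% of all genes lay lower in every d3ko than in every d0ko library. The fitted difference between the changes was -3.71 on the log2 scale (SE 1.05), with an adjusted p of 0.202 by edgeR and 0.00762 by DESeq2, so the difference did not pass the main test. Without d3con replicate 2 it was -4.19 (adjusted p = 0.021 by edgeR).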

How the results depend on the processing

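Over 306 recomputed member results, 273 kept their direction and their side of the threshold, 15 fell below it, 16 rose past it and 2 changed sign. The sign changes were in differences that were never called: Foxa1 in d3ko against d0ko was 0.96 without d0ko replicate 2 (range without each library -1.08 to 0.96), and Foxa3 in d2-FVFp against d2-FVFn was -0.06 without d2-FVFp replicate 1 (range -0.06 to 0.18). Median-of-ratios scaling and a mean count of at least 50 changed no member call. Leaving out each library gave Foxa3 2.39 to 3.2 in d3con against d0con, -4.43 to -3.59 in d3ko against d3con and -2.84 to -2 in d2-FVFp against d3con. DESeq2 against a 2-fold change lost Foxa3 in d3con against d0con (2.69, adjusted p = 0.0873) and in d2-FVFp against d3con (-2.34, adjusted p = 0.222), and Foxa2 in the latter (1.67, adjusted p = 0.181). Summing libraries of a clone lost Foxa3 in d3con against d0con (2.43), Foxa1 in d3ko against d3con (-7.25) and Foxa3 there (-3.83), and the fit of the d3ko and d3con libraries alone lost Foxa3 (-3.97). The cause was not tested.

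The interaction passed for Foxa1 and Foxa2 with no filter (-10.27 and -7.68), with DESeq2 (-10.56, -7.69 and, for Foxa3, -3.72), with DESeq2 against a 2-fold change (-10.56 and -7.69) and without both day 3 replicate 2 libraries (-10.81, -7.85 and, for Foxa3, -3.82). Leaving out each library gave -12.81 to -8.94 for Foxa1, -7.99 to -7.32 for Foxa2 and -4.19 to -3.34 for Foxa3. The replicate block by clone lost Foxa3 in d3con against d0con (1.97) and gained the Foxa1 interaction (-9.79), and changed no other member call. Same-numbered d3con and d3ko libraries come from different clones, but both replicates 1 had 75-base reads and both replicates 2 had high node markers. Their deviations from group means correlated at 0.526, 0.294 and -0.00629, not above 0.1 in every pair, and the block gave 816 calls against 1148. The same correlation was 0.239 in both doxycycline pairs and 0.105 in both pairs of d0con with d0ko, above 0.1. With 2 libraries a group, both pairs give the same value by construction. The main doxycycline fit was unpaired all the same, and a block by replicate gave 1497 calls against 1092.

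List genes called lower in d3con than d0con numbered 6 to 14 without each library and 16 without both day 3 replicate 2 libraries. In d3ko against d3con the higher count was 0 to 9 and, without both, 11, and the lower count 2 to 12. In d2-FVFp against d2-FVFn the counts were 4 to 12 higher and 3 to 8 lower. By expected counts the Foxa1 share was -16.63 percentage points in d3ko against d3con, not -11.8. Over all genes, calls in d3ko against d3con ranged from 1 (clones summed) and 67 (those 6 libraries alone) to 2572 (without both replicate 2 libraries), with 411 by DESeq2 against a 2-fold change, which gave 2074 against 4890 in d3con against d0con, 542 against 2408 in d3ko against d0ko and 233 against 1092 in d2-FVFp against d2-FVFn. Foxa1 could not be fitted in d2-FVFp against d2-FVFn with the filter, nor with only the 2 groups in d3ko against d0ko, d0ko against d0con or d2-FVFn against d0con, being below the filter. Depth limits Foxa1 and Foxa2 in the day 0 and d3ko libraries, where each had at most 8 counts.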

Other observations

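Within the d3con cells, replicate 2 (clone C63) differed from the C59 libraries in more forkhead genes than Foxa1, Foxa2 and Foxa3. Its Foxj1 level was 57.5 TPM, against 6.07 and 4.38 TPM in replicates 1 and 3, while its Foxq1 level of 48.89 TPM was the lowest of the 3. The ratio of Foxa3 to Foxa2 TPM was 0.289 in this library and 1.1 and 1.22 in the C59 libraries, and the ratio of Foxa1 to Foxa2 was 0.222 against 0.478 and 0.388. In d3ko, replicate 2 (clone C17) likewise had the highest Foxj1 of its group, at 7.99 TPM against 0.81 and 3.16 TPM. These genes were chosen after their values were seen, and with 1 library of each of these clones at day 3 the difference was not tested.

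The mean transcript length that RSEM gave Foxa2, which depends on the mix of its annotated transcripts, was 2072.25 to 2077.62 bases in the d3con libraries and 2070 bases in both d2-FVFp libraries. It was also 2070 bases in the d0con, d0ko and d2-FVFn libraries and in d3ko replicates 1 and 2. In d3ko replicate 3 it was 2088.61 bases, on 6 counts.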
